A study of Arabidopsis thaliana with 18 samples.

Results

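SnRK1 is the plant protein kinase related to yeast SNF1 and animal AMPK, and its transcripts were examined in guard cells, the paired epidermal cells that open and close stomata. The kinase works as a complex of a catalytic alpha subunit, a beta subunit that holds the complex together and a gamma-type subunit, and it is known for acting when sugar or energy runs short, when it favours breakdown of reserves over growth. The upstream kinases GRIK1 and GRIK2 switch the alpha subunit on by phosphorylating its activation loop. The 9 genes were taken by identity and not by a cut on measured values, although earlier results of these data were known. They were KIN10 (AT3G01090) and KIN11 (AT3G29160), the catalytic subunits, and AKINBETA1 (AT5G21170), AKINBETA2 (AT4G16360) and the short AKINBETA3 (AT2G28060), the beta subunits. The others were SNF4 (AT1G09020), the plant betagamma subunit, AKINGAMMA (AT3G48530), a gamma-type subunit, and GRIK1 (AT3G45240) and GRIK2 (AT5G60550). All 9 of the 9 were on the array, each with 1 probe set that lists no second gene, out of 22591 identifiers that name 1 locus.

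The guard cells came from Arabidopsis leaf strips 1 mm wide that had floated for 5 h on the same potassium chloride and MES buffer with 150 mM sucrose, with 150 mM mannitol (an osmotic control that plants use poorly) or with no sugars added. Each treatment was given to leaves of rgs1, described by the study as a null mutant of the G-protein regulator RGS1 and represented by 1 line, and to leaves of wild-type Col-0, which gave 6 groups of 3 arrays. Each array holds RNA amplified in 2 rounds from 50 to 100 guard-cell pairs cut by hand from freeze-dried strips of 1 plant, so that replicates are separate plants. All values below are deposited log2 values from GCRMA, which corrects probe background and sets the arrays on a common scale. A value of 4 was taken as the level below which a probe set could not be told from background.

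RGS1 itself was between 3.14 and 5.75 in the 9 rgs1 arrays, with a median of 4.68, and between 8.17 and 10.37 in the 9 wild-type arrays, with a median of 9.59. All 10 guard cell markers averaged above 4, whereas none of 4 phloem markers and none of 3 trichome markers did. Of 4 pavement epidermis markers, 3 averaged at least 4. Their summed log2 level had a median of 13.98 on sucrose arrays, 13.86 on mannitol arrays and 14.66 on no-sugars arrays. One wild-type sucrose array (replicate 1) had summed phloem and trichome marker levels of 8.94 and 9.55, against at most 4.65 and 5.96 on any other array. Between 47.6% and 49.2% of probe sets were at or above 4 on each array, and arrays of 1 group correlated at 0.91 to 0.96. The 3 arrays with the lowest mean correlation to the other 17 were replicate 1 of rgs1 with sucrose and, from the wild type, both replicate 2 with sucrose and replicate 2 with mannitol.

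**Figure D1:**
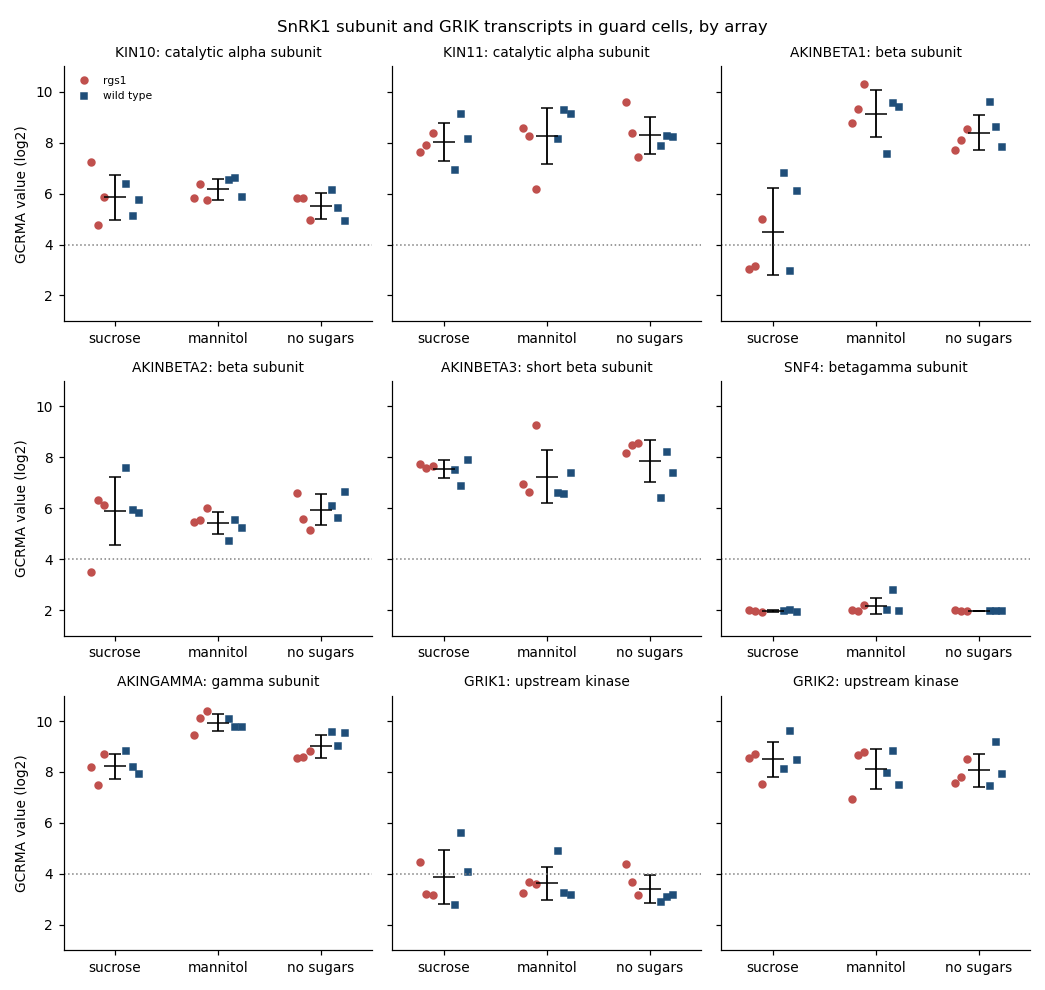
GCRMA values (log2, vertical axes) of the 9 transcripts on each of the 18 arrays by treatment, with rgs1 as circles, wild type as squares, and the mean and SD of the 6 arrays of a treatment as bars; the dotted line marks a value of 4. AKINBETA1 in sucrose lies below every mannitol and no-sugars array, AKINGAMMA in sucrose lies below every mannitol array, and SNF4 stays near 2 throughout.

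Sucrose set against mannitol, at the same molarity, asks what the sugar does beyond its osmotic strength. Of the 9 transcripts, AKINBETA1 and AKINGAMMA fell with sucrose, and none rose. Of the other 7, the 5 that could be tested (KIN10, KIN11, AKINBETA2, AKINBETA3 and GRIK2) differed by at most 0.46 on the log2 scale and did not pass the test, and SNF4 and GRIK1 were at or near background. Among all 10979 probe sets tested, 259 passed at an adjusted p under 0.05, which is 2.36%, and 133 of them, or 1.21% of those tested, were lower with sucrose. The count of 2 of 7 tested members stands beside that share.

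AKINBETA1 encodes a beta subunit, which carries a carbohydrate-binding module and links the catalytic to the gamma-type subunit. With sucrose its values were 3.04, 3.16 and 5.01 in rgs1 and 6.80, 2.95 and 6.10 in the wild type. With mannitol they were 8.77, 9.33 and 10.29 in rgs1 and 7.55, 9.55 and 9.39 in the wild type. With no sugars they were 7.71, 8.09 and 8.52 in rgs1 and 9.61, 8.61 and 7.83 in the wild type. Every sucrose array was thus below every array of the other treatments, and 3 of the 6 sucrose arrays were below 4, so that the transcript passed the filter on low values through the other treatments.

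The mean of AKINBETA1 was 4.51 ± 1.70 with sucrose and 9.15 ± 0.92 with mannitol (SD, n = 6 each), a log2 difference of -4.64 (SE 0.70, 95% interval -6.15 to -3.13) or 24.9-fold, with an adjusted p of 0.00563 in limma. With values below 4 raised to 4, the difference was -4.16 (adjusted p 0.0397). Against no sugars, where AKINBETA1 averaged 8.39 ± 0.70 (SD, n = 6), the log2 difference was -3.89 (SE 0.67, 95% interval -5.32 to -2.45) or 14.8-fold, with an adjusted p of 0.00784. In that comparison 449 of 10937 probe sets passed, or 4.11%, and 193, or 1.76% of those tested, were lower with sucrose. Both comparisons use the same 6 sucrose arrays, so they are not separate evidence. AKINBETA1 was the 1 member of the 7 tested that passed against no sugars.

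The direction of the AKINBETA1 change held under every alternative that was run, but its call rested on the arrays numbered replicate 2. Without them the difference from mannitol was -3.76 (adjusted p 0.237) and that from no sugars -3.18 (adjusted p 0.142), while leaving out any 1 of the 12 arrays kept both calls. Without the 3 least correlated arrays, AKINBETA1 differed from mannitol by -3.80 (adjusted p 0.0806) and from no sugars by -3.13 (adjusted p 0.0371).

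AKINGAMMA encodes a gamma-type subunit with CBS domains, the kind of domain that binds adenine nucleotides in animal AMPK. Its values with sucrose were 8.19, 7.49 and 8.71 in rgs1 and 8.82, 8.18 and 7.92 in the wild type. With mannitol they were 9.46, 10.13 and 10.39 in rgs1 and 10.09, 9.77 and 9.78 in the wild type. With no sugars they were 8.54, 8.59 and 8.82 in rgs1 and 9.58, 9.02 and 9.53 in the wild type. The sucrose and mannitol arrays did not overlap, and the no-sugars arrays overlapped both.

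AKINGAMMA averaged 8.22 ± 0.50 with sucrose and 9.94 ± 0.33 with mannitol (SD, n = 6 each), and the log2 difference was -1.72 (SE 0.31, 95% interval -2.38 to -1.05) or 3.29-fold, with an adjusted p of 0.0138 in limma. All 6 sucrose arrays stayed well above the level of 4, unlike those of AKINBETA1. With no sugars AKINGAMMA averaged 9.01 ± 0.45 (SD, n = 6), and sucrose differed from this by -0.80 (SE 0.32, 95% interval -1.48 to -0.11, adjusted p 0.169). Leaving out any 1 array kept the AKINGAMMA call against mannitol, which was lost without the arrays numbered replicate 2 (-1.52, adjusted p 0.285), without those numbered replicate 3 (-1.69, adjusted p 0.103) and without the 3 least correlated arrays (-1.73, adjusted p 0.109).

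Mannitol set against no sugars shows what the osmotic control does by itself. No member passed here (limma, 0 of 7 tested), in a comparison in which 30 of 10913 probe sets passed, or 0.275%. AKINGAMMA was the single member of the 7 with an unadjusted p under 0.05, and it stood 0.92 higher with mannitol (SE 0.29, 95% interval 0.31 to 1.53, p 0.00615, adjusted p 0.155 in limma). Of all probe sets tested, 1718, or 15.7%, had an unadjusted p under 0.05, so this count says nothing particular about the members. AKINBETA1 stood 0.75 higher (SE 0.45, adjusted p 0.432) and KIN10 0.65 higher (SE 0.30, adjusted p 0.323) with mannitol than with no sugars. The AKINGAMMA level was therefore lowest with sucrose, intermediate with no sugars and highest with mannitol, and of these steps only the one between sucrose and mannitol passed the test. For AKINBETA1 the sucrose level was apart from both others, which did not differ beyond their spread.

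**Figure D2:**
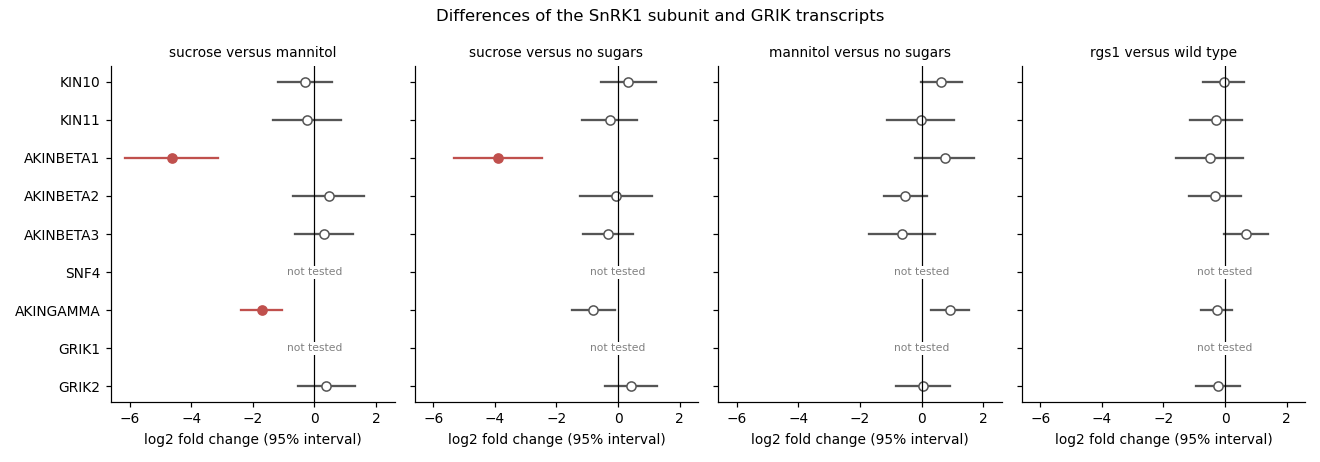
Log2 fold changes (horizontal axes, with 95% intervals as lines) of the 9 transcripts in the comparisons of treatments, 6 against 6 arrays, and of genotypes, 9 against 9 arrays; filled red points have an adjusted p under 0.05 in limma and open points do not. AKINBETA1 (-4.64 and -3.89) and AKINGAMMA (-1.72) are the filled points, and the intervals of KIN10, KIN11, AKINBETA2, AKINBETA3 and GRIK2 include 0 throughout.

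The samples also held RNA of genes that mark mesophyll, and the summed level of this RNA was lower on most sucrose arrays. Several of these genes encode chloroplast proteins, and guard cells have chloroplasts of their own. Of 7 mesophyll markers, 6 were on the array and all 6 averaged above 4, among them RBCS1A, which encodes the small subunit of Rubisco, and RCA, which encodes Rubisco activase. Their summed log2 level was 11.41 to 13.67 on sucrose arrays (median 12.78), 12.59 to 14.14 on mannitol arrays (median 13.79) and 13.61 to 14.25 on no-sugars arrays (median 13.89). The values were added before the log2 was taken, so RBCS1A weighs most in the sum. It averaged 11.92 with sucrose, 13.07 with mannitol and 13.28 with no sugars. The study did not use RBCS as a PCR reference because its sugar treatments changed the expression of this gene. None of the 6 passed the test against mannitol, where their median difference was -0.68, or against no sugars, where it was -1.33. In RNA from dissected cells, fewer cells of a type and less RNA per cell cannot be told apart.

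Among the sucrose arrays, the 3 with the lowest mesophyll sums (11.41, 12.02 and 12.51) were the 3 in which AKINBETA1 was below 4 (3.16, 3.04 and 2.95). The other sucrose arrays had sums of 13.05, 13.62 and 13.67, with AKINBETA1 at 6.10, 6.80 and 5.01. The last 2 of these sums lie within the range of the no-sugars arrays, whose lowest AKINBETA1 value was 7.71, and the mannitol array with the lowest sum (12.59) had AKINBETA1 at 9.55. AKINGAMMA on the sucrose arrays with sums of 13.62 and 13.67 was 8.82 and 8.71, below the lowest mannitol value of 9.46. The array with the sum of 13.62 was wild-type sucrose replicate 1, which also had the high phloem and trichome sums of 8.94 and 9.55. The part of mesophyll RNA in these differences was not tested. The summed guard cell marker level ranged from 15.78 to 16.22 with sucrose, 15.59 to 16.22 with mannitol and 15.83 to 16.03 with no sugars, and none of the 10 guard cell markers passed in either sucrose comparison.

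**Figure D3:**
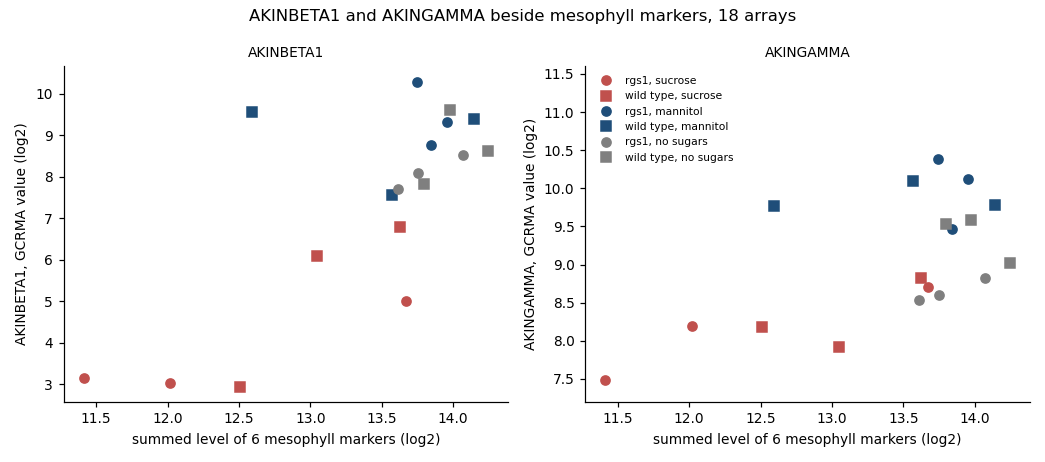
AKINBETA1 (left) and AKINGAMMA (right), as GCRMA values (log2, vertical axes), against the summed level of 6 mesophyll markers (log2, horizontal axes) on 18 arrays, coloured by treatment, with rgs1 as circles and wild type as squares. RBCS1A weighs most in the sum. The sucrose arrays with sums of 13.62 and 13.67 have AKINBETA1 at 6.80 and 5.01, below the no-sugars arrays, which begin at 7.71. The first of these is wild-type replicate 1, the array with phloem and trichome sums of 8.94 and 9.55.

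The remaining beta subunits did not follow AKINBETA1. AKINBETA2, the paralog with the same domain layout, had a lowest value of 3.49, a median of 6.04 and a highest of 7.56 with sucrose, against 4.72, 5.51 and 6.01 with mannitol and 5.14, 5.86 and 6.65 with no sugars. The sucrose arrays spanned those of both other treatments. AKINBETA2 differed from mannitol by 0.46 (95% interval -0.69 to 1.60, adjusted p 0.704) and from no sugars by -0.066 (95% interval -1.24 to 1.11, adjusted p 0.956), and the second sign turned under several alternatives.

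AKINBETA3 is a short beta subunit that lacks the carbohydrate-binding module. It had a lowest value of 6.88, a median of 7.61 and a highest of 7.91 with sucrose, against 6.57, 6.80 and 9.26 with mannitol and 6.41, 8.19 and 8.55 with no sugars. The sucrose values were the tightest of the 3 treatments and lay inside the range of both others. The difference from mannitol was 0.31 (95% interval -0.64 to 1.26, adjusted p 0.769) and that from no sugars -0.32 (95% interval -1.14 to 0.49, adjusted p 0.661). For AKINBETA2 and AKINBETA3 the intervals against mannitol leave room for changes of up to 1.60 and 1.26 upwards and of 0.69 and 0.64 downwards, and they do not reach the interval of AKINBETA1. The difference between the subunits' changes was not itself tested.

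The catalytic subunits KIN10 and KIN11 were present on all 18 arrays. KIN10 had a lowest value of 4.79, a median of 5.81 and a highest of 7.24 with sucrose, against 5.73, 6.12 and 6.63 with mannitol and 4.91, 5.64 and 6.14 with no sugars. KIN11 had a lowest value of 6.93, a median of 8.02 and a highest of 9.13 with sucrose, against 6.18, 8.41 and 9.27 with mannitol and 7.43, 8.24 and 9.58 with no sugars. For both genes the ranges of the 3 treatments overlapped. Sucrose differed from mannitol by -0.31 for KIN10 (95% interval -1.18 to 0.57, adjusted p 0.746) and by -0.25 for KIN11 (95% interval -1.35 to 0.86, adjusted p 0.848). Against no sugars the differences were 0.34 for KIN10 (95% interval -0.55 to 1.23, adjusted p 0.675) and -0.28 for KIN11 (95% interval -1.17 to 0.62, adjusted p 0.745).

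Of the upstream kinases, GRIK2 was above background on all 18 arrays and GRIK1 on 5. GRIK2 had a lowest value of 7.53, a median of 8.51 and a highest of 9.60 with sucrose, against 6.94, 8.31 and 8.83 with mannitol and 7.44, 7.87 and 9.16 with no sugars. It differed from mannitol by 0.38 (95% interval -0.53 to 1.30, adjusted p 0.690) and from no sugars by 0.43 (95% interval -0.42 to 1.27, adjusted p 0.563). GRIK1 reached 4 on 3 sucrose arrays, 1 mannitol array and 1 no-sugars array, with a highest value of 5.62. Too few arrays reached 4 for a test with the genotypes combined, and in the wild type alone GRIK1 differed by 0.39 between sucrose and mannitol (SE 0.84, adjusted p 0.915).

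SNF4, whose product joins a carbohydrate-binding module to CBS domains and is regarded as the gamma subunit of the main plant complexes, lay between 1.93 and 2.78 on all 18 arrays. No array reached 4, and no test was made. For its probe set the arrays give no measurable level, which does not show that the transcript was absent.

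No member differed between rgs1 and the wild type at the threshold. Over 9 rgs1 and 9 wild-type arrays, 1 of 10853 probe sets passed, or 0.00921%, and this was RGS1 (log2 difference -5.21, SE 0.41, adjusted p 1.41e-06 in limma). Of the 7 members tested, 0 passed in limma, and none had an unadjusted p under 0.05. AKINBETA3 stood farthest apart, 0.68 higher in rgs1 (SE 0.34, 95% interval -0.035 to 1.40, adjusted p 0.905). The rgs1 minus wild-type difference was -0.50 for AKINBETA1 (SE 0.52, adjusted p 0.938) and -0.26 for AKINGAMMA (SE 0.24, adjusted p 0.933).

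Within single genotypes, 3 arrays against 3, both sucrose-responsive subunits moved the same way and did not pass the test. In rgs1, AKINBETA1 differed by -5.72 between sucrose and mannitol (SE 0.70, adjusted p 0.0666 in limma) and AKINGAMMA by -1.86 (SE 0.52, adjusted p 0.249), where 3 of 11201 probe sets passed, or 0.0268%. In the wild type, AKINBETA1 differed by -3.55 (SE 1.06, adjusted p 0.444) and AKINGAMMA by -1.57 (SE 0.47, adjusted p 0.444), where 1 of 11131 probe sets passed, or 0.00898%. In rgs1 the AKINBETA1 call depended on the fit, since it passed in 4 of the 20 alternatives run. The genotypes' sucrose responses differed by -2.18 for AKINBETA1 (SE 1.24, adjusted p 1.00) and by -0.29 for AKINGAMMA (SE 0.58, adjusted p 1.00). In this interaction no probe set of 12608 passed in limma, or 0%, while 499 had an unadjusted p under 0.05, and ordinary gene-by-gene t statistics also called 0. AKINBETA1 was below the mannitol arrays of its own genotype on every rgs1 and every wild-type sucrose array, with no detectable difference in the response between the genotypes at 3 arrays per group.

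The transcripts most like the sucrose-responsive subunits over the 18 arrays, among 11080 probe sets with a mean of at least 4, were named by Pearson's r as a description. For AKINBETA1 they were HCF173, whose product is needed to make the D1 protein of photosystem II (r = 0.94), CP12-2, a regulator of Calvin cycle enzymes (0.93), AT2G46550 (0.92), CYP89A9, a cytochrome P450 of chlorophyll breakdown (0.91), and AT5G54540 (0.91). For AKINGAMMA they were AT1G27300 (0.91), ATG8F, a ubiquitin-like protein of autophagosomes (0.88), AT1G58032 (0.87), AT4G03030 (0.85) and AT5G18630 (0.85). The 2 sets of 5 share no gene, although AKINBETA1 and AKINGAMMA themselves correlated at 0.81 over the 18 arrays. These values follow the treatments, as the points share sucrose, mannitol and no-sugars arrays, and carry no test.

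The arrays measured transcripts and not kinase activity, which was not tested. Levels were read for a list of transcripts known to rise when KIN10 is active or sugar is lacking. This list was defined in part by lack of sugar and was chosen with earlier results of these data known. Its fall with sucrose is therefore not separate evidence about SnRK1. Of its 23 genes, 20 could be tested against mannitol, and 13 fell with sucrose and 0 rose. The median log2 difference was -3.28, against 0.026 over all probe sets tested. Among all 10979 probe sets 133 passed in that direction, or 1.21%. Against no sugars 9 of 18 tested fell and 0 rose, with a median of -2.16 against 0.0062 over all, where 193 of 10937 probe sets, or 1.76%, were lower with sucrose. Between mannitol and no sugars 0 of 20 passed in limma or with gene-by-gene t statistics. In limma 10 had an unadjusted p under 0.05, as did 15.7% of all probe sets tested. The median was 1.14 higher with mannitol, against -0.034 over all. Without the arrays numbered replicate 2, 2 of 20 fell against mannitol and 1 of 18 against no sugars, with medians of -2.79 and -2.17, where 3 of 11122 and 14 of 10994 probe sets were lower with sucrose. Without the 3 least correlated arrays 6 of 20 fell against mannitol and 5 of 20 against no sugars, where 15 of 11201 and 66 of 11260 probe sets were lower with sucrose. With values below 4 raised to 4, which brings all 23 into the test, 4 fell against mannitol and 3 against no sugars. Of all 22746 probe sets, 17 and 53 were then lower with sucrose.

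The 4 members of this list with the largest changes that passed against mannitol were named. BXL1, a beta-xylosidase, averaged 2.98 ± 0.06 with sucrose, 11.66 ± 1.70 with mannitol and 9.95 ± 2.87 with no sugars (SD, n = 6 each), a difference of -8.68 from mannitol (SE 0.63, adjusted p 1.56e-05). BGAL4, a beta-galactosidase, averaged 2.94 ± 0.08 with sucrose, 11.51 ± 2.12 with mannitol and 7.46 ± 3.12 with no sugars, a difference of -8.57 from mannitol (adjusted p 0.000115). SEN1, a gene raised in darkness and senescence, differed by -7.15 (adjusted p 0.00274) and AT3G15450, also called SEN5, by -5.86 (adjusted p 0.00912), close to the next member, the zinc finger gene RZPF34 (-5.79, adjusted p 0.00274). Of 30 alternatives, the call of SEN1 was lost in 4, that of SEN5 in 6 and those of BXL1 and BGAL4 in 1 each. Both SEN1 and SEN5 were lost without the arrays numbered replicate 2 (adjusted p 0.169 and 0.305). BXL1, BGAL4, SEN1 and RZPF34 averaged below 4 with sucrose and entered the test through the mannitol arrays. SEN5 did so too, although it averaged 4.63 with sucrose. It reached 4 on 14 of 18 arrays, and those below 4 were sucrose arrays. The sizes of their differences therefore depend on the low end of the scale. ASN1, the asparagine synthetase often used as a reporter of KIN10, reached 4 on 1 of 18 arrays and was not tested. GDH2, a glutamate dehydrogenase, had a difference of 0.038 from mannitol (adjusted p 0.977).

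**Figure D4:**
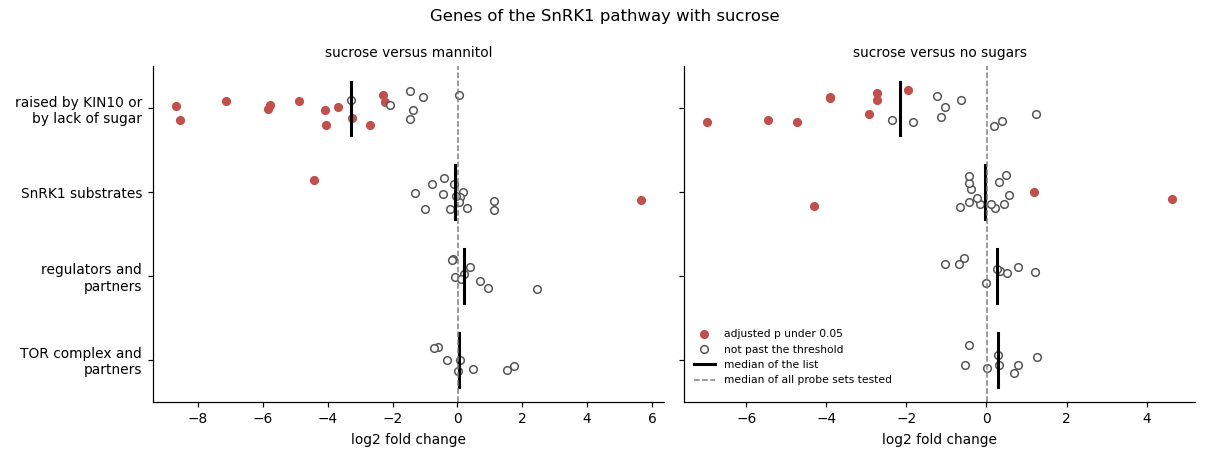
Log2 fold changes (horizontal axes) of the tested genes in 4 lists of the SnRK1 pathway for sucrose against mannitol (left) and against no sugars (right), each point a gene, filled where its adjusted p was under 0.05 in limma; the upright bars are list medians and the dashed line the median of all probe sets tested. Transcripts raised by KIN10 or by lack of sugar lie mostly on the negative side, with medians of -3.28 and -2.16, and the lists of regulators and of TOR partners hold no filled point.

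Transcripts of proteins that SnRK1 phosphorylates showed no common direction. Of 20 listed, 16 could be tested, and 1 rose and 1 fell with sucrose against mannitol. Against no sugars 2 rose and 1 fell. Of all probe sets tested, 2.36% passed against mannitol and 4.11% against no sugars. TPS5, a class II trehalose-phosphate synthase-like protein, rose to 11.13 ± 0.54 with sucrose, against 5.48 ± 2.93 with mannitol and 6.50 ± 1.10 with no sugars (SD, n = 6 each), a difference of 5.65 from mannitol (SE 1.05, adjusted p 0.0154). BZIP63, a transcription factor that SnRK1 phosphorylates on starvation, fell to 3.60 ± 0.90 with sucrose, against 8.04 ± 1.30 with mannitol and 7.92 ± 0.54 with no sugars, a difference of -4.43 from mannitol (SE 0.59, adjusted p 0.00274). BZIP63 averaged below 4 with sucrose and entered the test through the other treatments, so the size of its difference depends on the low end of the scale. TPS5 reached 4 on 15 arrays, and those on which it was below 4 were mannitol arrays. The size of the TPS5 difference from mannitol therefore depends on the low end of the scale too. Against no sugars both passed again (TPS5 4.63, adjusted p 0.000145; BZIP63 -4.32, adjusted p 0.000124). SPS1F, a sucrose-phosphate synthase, was 1.19 higher than with no sugars, near the threshold (adjusted p 0.0476). It did not pass in 21 of 30 alternatives, among them replicate number as a block (adjusted p 0.0629), replicate 3 as a batch term (adjusted p 0.0532) and each replicate number left out (adjusted p 0.113 to 0.400). The list's medians were -0.064 against mannitol and -0.027 against no sugars. The calls of TPS5 and BZIP63 against mannitol were lost without the arrays numbered replicate 2 (adjusted p 0.323 and 0.205) without the 3 least correlated arrays (adjusted p 0.154 and 0.0602) and with replicate 3 alone (adjusted p 0.561 and 0.381). That of TPS5 was also lost with no filter (adjusted p 0.0816), with gene-by-gene t statistics (adjusted p 0.0666) and with values below 4 raised to 4 (adjusted p 0.0805).

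No known regulator or partner of the complex passed the test against mannitol. Of 16 listed, 9 could be tested and 0 passed in limma or with gene-by-gene t statistics, while 1 had an unadjusted p under 0.05, and the median was 0.20. With 2.36% of all probe sets called and 18.7% at an unadjusted p under 0.05, these counts say nothing particular about this list. The 9 genes tested include TPS1, which makes the SnRK1 inhibitor trehalose 6-phosphate (-0.14, adjusted p 0.900), and the phosphatases ABI1 (0.20, adjusted p 0.793) and PP2CA (-0.18, adjusted p 0.847), which dephosphorylate the catalytic subunit. The zinc finger protein FLZ6 stood 2.46 higher with sucrose than with mannitol (SE 0.93, adjusted p 0.172) and the phosphatase SEX4 0.93 higher (SE 0.52, adjusted p 0.369), and neither passed. FLZ6 averaged below 4 with mannitol. Of 11 genes of the TOR kinase, which promotes growth where SnRK1 restrains it, 8 could be tested and 0 passed against mannitol in limma or with gene-by-gene t statistics, while 2 had an unadjusted p under 0.05, and the median was 0.060. These counts, too, stand beside 2.36% and 18.7% of all probe sets. The ribosomal protein RPS6A, a downstream target of TOR signalling, stood 1.75 higher with sucrose than with mannitol (SE 0.47, adjusted p 0.0647). It passed in 3 of 30 alternatives, with all 18 arrays in one fit (adjusted p 0.0438), without replicate 1 (adjusted p 0.0409) and without wild-type mannitol replicate 1 (adjusted p 0.0491).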

How the data were processed

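The 18 samples were hybridised to Affymetrix ATH1 arrays, 3 per combination of genotype and treatment, after amplification of the RNA with T7 polymerase. The deposited log2 values were made by the authors with GCRMA (background correction, normalization between arrays and summary of each probe set); its version is not given in the sources used here. The series' value table held the same numbers (0 values differed), and no value was missing. No further normalization was applied. Probe sets were named by the locus given with them (22091 of 22591 single loci matched a RefSeq gene).

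Probe sets entered a test when they reached 4 (log2) on a number of arrays equal to the size of the smaller group, a filter used in place of the authors' absent calls. The tests were those of limma (version 3.58.1, R 4.3.3) with Benjamini-Hochberg adjustment over all probe sets tested and a threshold of 0.05. Only the arrays compared entered a fit. Sugar treatments were compared with genotypes combined, as in the study's methods, and genotypes with treatment as a term. The code was tested on simulated data. The precision is limited by the number of arrays. The third plant of each group came from a later batch, which was taken to be replicate 3 although the labels do not say so.

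All 9 members are named. Of each gene list, members past the threshold against mannitol, at most the 4 with the largest change, are named by rule, and the others were chosen after their values were seen. The members and lists were chosen with earlier results of these data known, from general knowledge of gene function. Alternatives covered the filter, scaling, weights, terms, other test statistics and left-out arrays. Those that keep replicate 3 alone, leave out the 3 least correlated arrays or raise low values were added after seeing the data.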

Additional observations from a re-analysis of the deposited data

Results flagged for a closer look

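In 4 of the 27 sets of 6 arrays examined (9 transcripts in 3 treatments), 1 array stood apart from the other 5 by Dixon's criterion, which chance meets in about 1 of 20 sets. All 4 were mannitol arrays. KIN11 was 6.18 on rgs1 mannitol replicate 3, where the next lowest mannitol array had 8.15. AKINBETA3 was 9.26 on the same array, where the next highest had 7.39. SNF4 was 2.78 on wild-type mannitol replicate 2, still below 4, where the next highest had 2.21. GRIK1 was 4.89 on wild-type mannitol replicate 1, the 1 mannitol array on which it reached 4, where the next highest had 3.66. No member differed between the genotypes in its response to sucrose at an adjusted p under 0.05.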

How the results depend on the processing

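The number of members that passed was 2 for sucrose against mannitol and 1 for sucrose against no sugars. Both became 0 with replicate 3 alone, and they ranged from 0 to 2 and from 0 to 1 when 1 array or 1 replicate number was left out, with 0 without the arrays numbered replicate 2. Without the 3 least correlated arrays the first became 0. Within rgs1, 1 member (AKINBETA1) passed against mannitol with a filter at 6, with array weights, with replicate 3 as a batch term and with all 18 arrays in one fit, each 1 in place of 0. The cause of these shifts was not tested, beyond the smaller number of arrays. For all probe sets, the 259 calls against mannitol became 6 and the 449 against no sugars 27 without the arrays numbered replicate 2, and 77 and 251 with gene-by-gene t statistics, while without the 3 least correlated arrays they were 30 and 173.

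With replicate number as a block, AKINBETA1 differed from mannitol by -4.64 (adjusted p 0.00581) and AKINGAMMA by -1.72 (adjusted p 0.0213), and all probe sets gave 236 calls. The block changed no call of a member. Arrays of the same number in different groups hardly deviated together (mean correlation 0.0185, 8 of 45 pairs over 0.1). For arrays of different numbers the mean was -0.0093, with 18 of 90 pairs over 0.1. The numbers thus gave no sign of pairing, and a shared growth batch was not tested by this.

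No called difference of a member reversed. Signs turned only for differences that did not pass, where the adjusted p under the alternative was at least 0.582. With replicate 3 alone, the sucrose against mannitol difference was 0.0046 for KIN10, 0.60 for KIN11, -0.54 for AKINBETA3 and -0.13 for GRIK2, that against no sugars was 0.43 for KIN11, 0.077 for AKINBETA2 and -0.21 for GRIK2, and that of mannitol against no sugars was 0.35 for AKINBETA3 and -0.083 for GRIK2. Under array weights AKINBETA2 was 0.059 against no sugars, and mannitol against no sugars was 0.11 for KIN11 and -0.15 for GRIK2. Without the 3 least correlated arrays AKINBETA2 was 0.52 against no sugars and GRIK2 -0.10 for mannitol against no sugars. With values below 4 raised to 4, AKINBETA2 was 0.020 against no sugars.

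When arrays were left out, sucrose against mannitol ranged from -0.77 to 0.31 for KIN10 and from -0.67 to 0.17 for KIN11. Sucrose against no sugars ranged from -0.63 to 0.31 for KIN11, from -0.40 to 0.41 for AKINBETA2 and from -0.66 to 0.074 for AKINBETA3. Mannitol against no sugars ranged from -0.27 to 0.39 for KIN11 and from -0.10 to 0.28 for GRIK2. The rgs1 against wild type difference ranged from -0.24 to 0.11 for KIN10, from -0.94 to 0.12 for KIN11 and from -0.48 to 0.076 for GRIK2, and the AKINGAMMA interaction from -0.58 to 0.084. Each member has 1 probe set, so choosing another was not run.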
